A study of Mus musculus with 11 samples.

Results

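The genes described here are 10 of the core of the actin cytoskeleton and its companions: Actb, Actg1, Tmsb4x, Tmsb10, Pfn1, Cfl1, Coro1a, Arpc1b, Lcp1 and Vim. They were taken by their symbols from the 23282 entries that each of the 11 count files lists. All 10 were found once, and all 10 were among the 6987 genes with enough counts to be tested. The libraries were made from macrophages of mouse colon, sorted per the labels as CD45+ CD11b+ Ly6G- Ly6C- MHCII+ CD64+ cells. The mice drank 2.5% dextran sodium sulphate (DSS), an agent that injures the colon lining and gives colitis, for 5 days. Their strain was labelled wild type (WT) or Csf1r-EP4-/-, shortened below to knockout (KO). The gene of EP4, a prostaglandin receptor, is Ptger4, and Csf1r is a receptor gene of the macrophage lineage. The labels describe neither the construct that deletes EP4 nor the age, sex or number of animals behind a library. The titles place the libraries at day 0 or day 39, and the DSS protocol stands with every library, those of day 0 included. At day 0 there were 3 KO and 2 WT libraries, and at day 39 there were 3 of each label. The names of the deposited files give another day for the libraries titled day 39, and the titles were used.

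Actin monomers join into filaments that push the membrane forward, and macrophages use them to crawl, to probe their surroundings and to engulf particles. Thymosins hold monomers back, profilin feeds them to growing filament ends, the Arp2/3 complex starts branches, and cofilin and coronin take old filaments apart. Plastin ties filaments into bundles. Vimentin is no actin protein: it forms intermediate filaments, a separate network common in macrophages and other cells of mesenchymal origin.

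Library totals ran from 4003299 to 14207919 counts, with every day 39 library between 4003299 and 5000994. Counts came from a 3′ kit, so they were not divided by gene length. Levels are given as CPM, counts scaled to a library size of 1000000 after TMM, a normalisation that evens out the composition of libraries. Ptger4 did not follow the labels: at day 0 it had 1350, 0 and 890 counts under the KO label and none under the WT label, and at day 39 it had 1, 8 and 4501 (KO) and 1481, 152 and 7286 (WT). Directions between genotypes below therefore refer to the labels alone. The summed level of 14 macrophage markers lay between 8845 and 35218 CPM, and H2-Ab1, a gene of the MHC class II used in the sort, had at least 12803 counts in every library. Other genes of the sort were near absent in several libraries. Ptprc, the gene of CD45, had 0 to 8 counts in 5 of the 11, both WT day 0 libraries among them, and 104 to 2407 in the others. Fcgr1 (CD64) had 10 counts or fewer in 6 libraries and Itgam (CD11b) in 4. Markers of other cell types were present too. The 15 epithelial markers summed to between 74.7 and 1776 CPM at day 0 and between 1859 and 12893 CPM at day 39, without overlap. The 10 skeletal muscle markers summed to between 2744 and 25501 CPM, and the 11 markers of smooth muscle and stroma to between 3642 and 23597 CPM. Lymphocyte and neutrophil markers summed to at most 300.5 and 236 CPM in a library. In bulk RNA, fewer cells of a type and less RNA per cell cannot be told apart.

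The 10 genes divided by how even their counts were over the libraries. Actb, Actg1, Tmsb4x, Arpc1b and Vim had at least 1000 counts in all 11 libraries, which held for 100 of the 6987 tested genes (1.43%), and Cfl1 had at least 662. Tmsb10, Pfn1, Coro1a and Lcp1 each had 10 counts or fewer in at least 1 library, as had 6639 tested genes (95.02%). None of the 10 passed the edgeR test between days or between genotype labels.

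Actb encodes cytoplasmic beta-actin. It was between the 3rd and the 6th most abundant entry of every library, with 30193 to 125120 counts. Its level was 20106.5, 10905 and 5980 CPM under the KO label and 8689 and 14407 CPM under the WT label at day 0, and 9521, 6514 and 14460 (KO) and 9166, 9214 and 11368 CPM (WT) at day 39. KO day 0 held both the highest and the lowest library, and the other groups lay inside that range. At day 0 the mean was 12331 ± 7170 CPM (SD, n = 3) under the KO label and 11548 ± 4043 (n = 2) under the WT label. At day 39 the corresponding means were 10165 ± 4012 CPM (n = 3) and 9916 ± 1258 (n = 3). Over all libraries the highest value was 3.36-fold the lowest.

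Actg1 encodes gamma-actin, the other cytoplasmic actin. Its level was 986, 279 and 478 CPM under the KO label and 464 and 668 CPM under the WT label at day 0, and 682, 872 and 881 (KO) and 852, 451 and 929 CPM (WT) at day 39. The 2 lowest libraries were KO day 0 replicate 2 and WT day 39 replicate 2, and the days overlapped. Of the 6 day 39 libraries, 5 were above 4 of the 5 day 0 libraries, while KO day 0 replicate 1 stood above all of them.

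Because counts lie near the 3′ end, the coding sequences of the actin pair were compared only to show how alike the genes are. Both are 1128 bases long and 88.7% identical, differing at 128 positions. The first 60 coding bases follow, from GENCODE release M21 on GRCm38, with the 9 bases that differ in capitals.
Actb: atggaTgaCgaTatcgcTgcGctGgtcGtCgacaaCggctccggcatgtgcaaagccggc
Actg1: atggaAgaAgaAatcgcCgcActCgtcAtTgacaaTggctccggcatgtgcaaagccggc
The last 500 bases of the transcripts, where the counts of a 3′ kit arise, were compared next. Of the 451 runs of 50 bases in each tail, 0 of Actg1 occurred in a transcript of another gene, while 42 of Actb (9.31%) occurred in Lrrc58. Lrrc58 had 2976 to 22098 counts in the libraries, and how reads common to both were assigned is not given in the sources used here.

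Counts of Actb exceeded those of Actg1 in every library, by a ratio of 7.47 to 39.1. The ratio was 20.4, 39.1 and 12.5 (KO) and 18.7 and 21.6 (WT) at day 0, and 13.97, 7.47 and 16.4 (KO) and 10.8, 20.4 and 12.2 (WT) at day 39. Its mean was 22.4 ± 9.92 (SD, n = 5) at day 0 and 13.5 ± 4.52 (n = 6) at day 39, and the days overlapped. KO day 0 replicate 2, the library with the ratio of 39.1, was the one with the lowest Actg1 level. The plot of this ratio and of the summed share of the 10 genes gives each library.

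**Figure D1:**
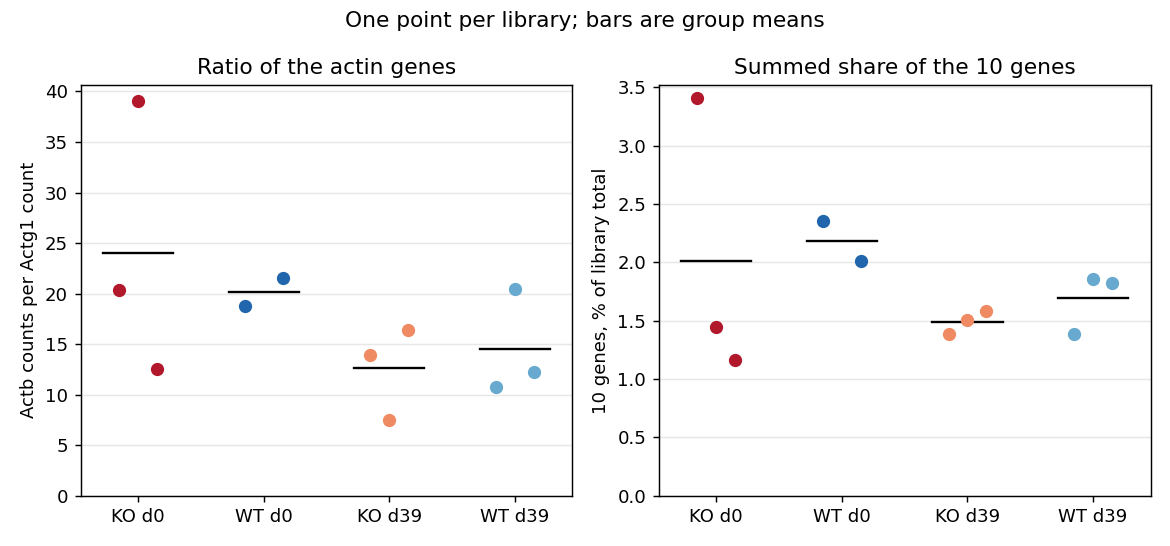
The left panel plots Actb counts per Actg1 count, the right panel the counts of the 10 genes together as a percentage of the library total. Each point is a library, horizontal bars are group means, and d0 and d39 are day 0 and day 39. The ratio spans 7.47 to 39.1 and the share 1.17% to 3.41%, both widest in KO day 0.

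Tmsb4x encodes thymosin beta-4, the chief store of unpolymerised actin in blood cells. Its level was 6002, 1426 and 2055 CPM under the KO label and 4257 and 6321 CPM under the WT label at day 0, and 4183, 2589 and 2283 (KO) and 2188, 4074 and 3692 CPM (WT) at day 39. In libraries labelled WT every day 39 value lay below both day 0 values, with means of 5289 ± 1460 CPM (SD, n = 2) at day 0 and 3318 ± 997 CPM (n = 3) at day 39. Such a lack of overlap held for 17.4% of all tested genes in that comparison. In libraries labelled KO the days overlapped, at 3161 ± 2480 CPM (n = 3) and 3018 ± 1020 CPM (n = 3).

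Tmsb10 encodes thymosin beta-10, a close relative with the same monomer-holding role. Levels of this gene were far less even. They were 928, 20.2 and 49.3 CPM under the KO label and 12.1 and 193 CPM under the WT label at day 0. At day 39 they were 101, 370 and 268 CPM (KO) and 418, 0.184 and 30.4 CPM (WT). In counts, KO day 0 replicate 1 had 5776 and WT day 39 replicate 2 had 1. Every group overlapped every other. The thymosin pair had 5.23 to 350 counts of Tmsb4x per count of Tmsb10 in the 10 libraries with more than 1 Tmsb10 count.

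The whole coding sequences of the thymosin pair, 135 bases each with the stop codon, are 70.4% identical. They are shown because the proteins are small enough to be seen entire, with the 40 bases that differ in capitals (GENCODE release M21, GRCm38).
Tmsb4x: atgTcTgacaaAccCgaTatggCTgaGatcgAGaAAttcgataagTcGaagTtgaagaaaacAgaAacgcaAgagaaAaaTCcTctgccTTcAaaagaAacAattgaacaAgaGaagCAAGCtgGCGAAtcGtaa
Tmsb10: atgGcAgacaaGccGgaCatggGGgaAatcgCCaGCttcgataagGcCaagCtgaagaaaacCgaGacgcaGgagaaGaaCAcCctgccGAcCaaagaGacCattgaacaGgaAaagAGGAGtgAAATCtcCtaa
In its last 500 bases, Tmsb4x shared 0 of 451 runs of 50 bases with any other gene. Tmsb10 shared 279 (61.9%) with 5 other genes, 4 annotated as pseudogenes and 1, Gm9844, as protein-coding, none of them listed in the count files. Its counts are therefore uncertain in a way those of Tmsb4x are not, since the treatment of reads with several matches is not given in the sources used here. The part of this in the uneven levels of Tmsb10 was not tested.

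Pfn1 encodes profilin 1, which binds actin monomers and hands them to growing filament ends. It had the fewest counts of the 10 genes, between 0 and 712. The level was 94.3, 1.16 and 0.0655 CPM under the KO label and 110 and 0 CPM under the WT label at day 0, and 3.88, 2.96 and 158 (KO) and 44.3, 131 and 4.82 CPM (WT) at day 39. Every group held a library above 90 CPM and one under 5. With 0 counts in WT day 0 replicate 2, the depth of that library allowed a level of up to 0.707 CPM (3 counts, counting error only), far below the 110 CPM of the other WT day 0 library. Pfn1 overlaps Eno3, an enolase gene of muscle, in RefSeq, and Eno3 had 0 to 10714 counts. In its last 500 bases, Pfn1 shared 0 of 451 runs of 50 bases with any other gene, on either strand. The overlap was thus not seen in the stretch where counts of a 3′ kit arise. Outside that stretch, counts near either gene are uncertain without a stated strand setting.

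Cfl1 encodes cofilin 1, which severs and disassembles filaments. Its level was 705, 115 and 520 CPM under the KO label and 439 and 418 CPM under the WT label at day 0, and 238, 1005 and 191 (KO) and 1013, 438 and 915 CPM (WT) at day 39. The WT day 0 libraries lay close together and the KO libraries were spread on both sides of them. The highest library was 8.79-fold the lowest. The last 500 bases of Cfl1 shared 305 of 451 runs of 50 bases (67.6%) with other genes, each of them with a retained-intron transcript of Snx32 on the opposite strand, and Snx32 had 0 counts in every library.

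Coro1a encodes coronin 1A, an actin-binding protein of white blood cells that helps filaments turn over and gathers at phagosomes. Its level was 407, 114 and 3.80 CPM under the KO label and 52.9 and 0.236 CPM under the WT label at day 0, and 96.2, 240 and 0.288 (KO) and 340, 10.7 and 1.31 CPM (WT) at day 39. Every group had a library under 4 CPM, and 3 libraries had 10 counts or fewer. Its spread within groups was the widest of the 10 genes.

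Arpc1b encodes the form of an Arp2/3 subunit that predominates in blood cells. Arpc1b stood at 1291, 1529 and 1040 CPM under the KO label and 2563 and 610 CPM under the WT label at day 0. At day 39 it stood at 957, 1710 and 2470 CPM (KO) and 1743, 906 and 1099 CPM (WT). The 2 libraries of WT day 0 held the highest and the lowest value, a 4.201-fold range. All 451 runs of 50 bases at its 3′ end also occur on the opposite strand in transcripts of Pdap1. Pdap1 had between 0 and 4596 counts and Arpc1b between 2589 and 15890. Without a stated strand setting, reads of this overlapping stretch cannot be told apart, so the Arpc1b level is uncertain. WT day 0 replicate 1 had 14346 counts for Arpc1b and 0 for Pdap1.

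Lcp1 encodes L-plastin, the bundling protein of white blood cells. Its level was 704, 573 and 105 CPM under the KO label and 655 and 39.3 CPM under the WT label at day 0, and 500, 136 and 1.73 (KO) and 133, 364 and 1228 CPM (WT) at day 39. The lowest value, of 6 counts, and the highest, of 5608, both came from day 39. No group stood apart from another.

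Vim encodes vimentin. Its level was 1530, 461 and 604 CPM under the KO label and 930 and 1626 CPM under the WT label at day 0, and 259, 1055 and 675 (KO) and 935, 826 and 724 CPM (WT) at day 39. The WT day 39 libraries lay close together, at 828 ± 106 CPM (SD, n = 3), while KO day 39 had 663 ± 398 CPM (n = 3). The lower WT day 0 library, at 930 CPM, lay just under the highest WT day 39 library, so those groups overlapped. The highest library of all was 6.28-fold the lowest.

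**Figure D2:**
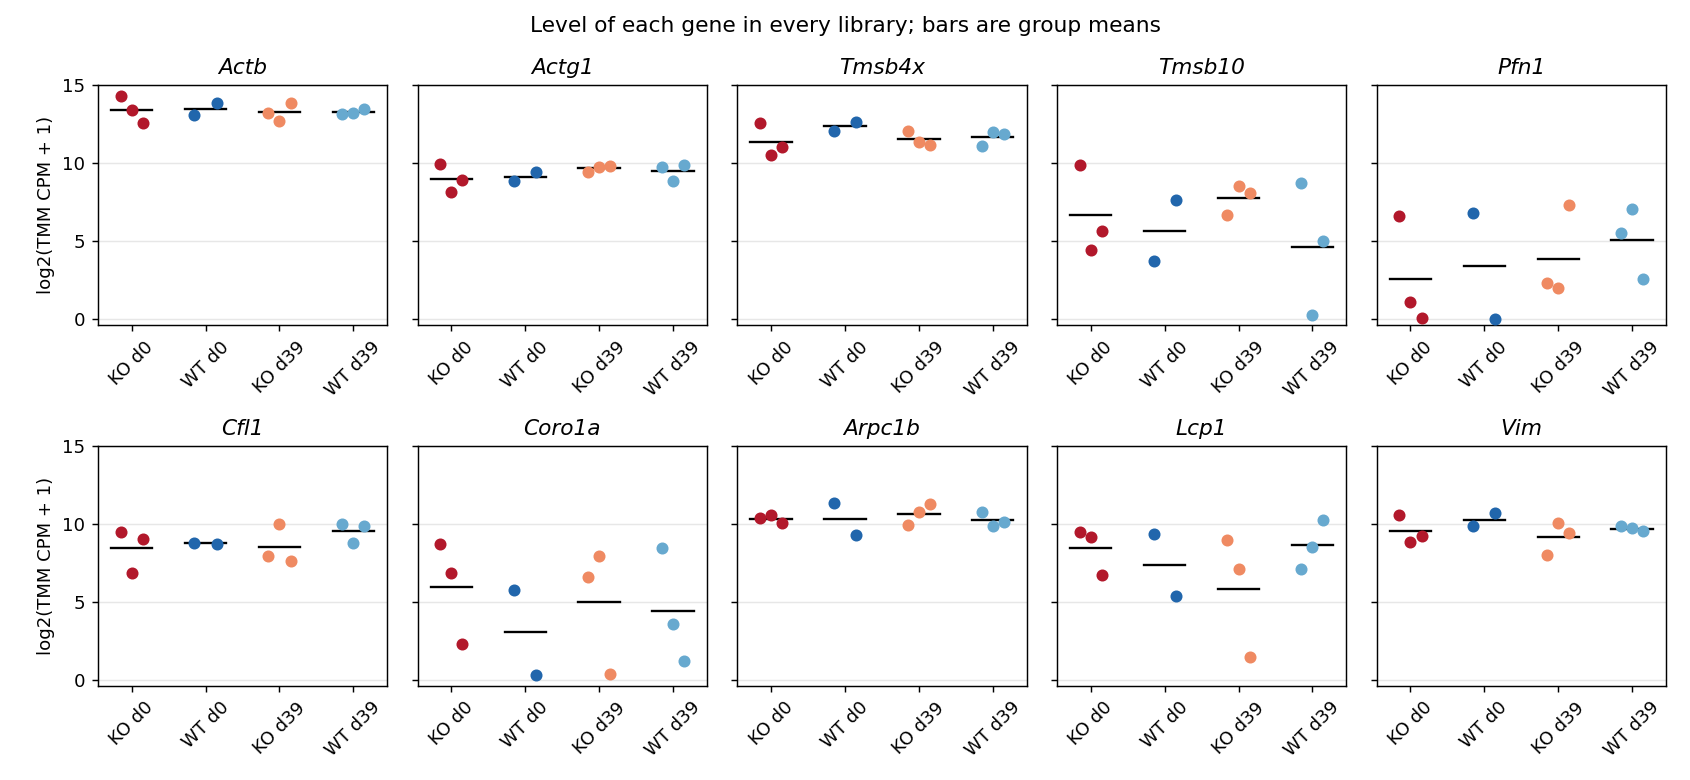
Each panel plots one gene, with the 4 groups on the x axis and log2(TMM CPM + 1) on the y axis. Points are libraries, replicates 1 to 3 from left to right within a group, and bars are group means. Actb, Actg1, Tmsb4x, Arpc1b and Vim form tight bands, while Tmsb10, Pfn1, Coro1a and Lcp1 reach from under 1.5 to over 7 on the log2 scale.

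The evenness of levels was measured as the SD of log2(CPM + 1) within groups, pooled over the 4 groups with 7 degrees of freedom. It was 0.600 for Actb, 0.602 for Actg1, 0.694 for Tmsb4x, 0.729 for Arpc1b, 0.772 for Vim and 1.08 for Cfl1, all 6 below the median of 3.04 over the tested genes. Between 0.787% (Actb) and 3.49% (Cfl1) of tested genes had a smaller SD than these. The other 4 genes sat among the bulk of genes, at 2.63 for Lcp1, 2.97 for Tmsb10, 3.29 for Pfn1 and 3.71 for Coro1a, and 31.6%, 46.4%, 62.9% and 81.4% of tested genes had a smaller SD.

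SDs were small among the genes of highest level. Among the 81 genes that averaged 1000 CPM or more the median SD was 0.982, while among the 2091 that averaged 100 CPM or more it was 3.36, against 3.04 over all tested genes. Actb, at a mean of 10939 CPM, had a smaller SD than most of those 81, 12 of which were below it. Genes of like level differed in their SD: Actg1, Cfl1 and Lcp1 had means of 686, 545 and 404 CPM and SDs of 0.602, 1.08 and 2.63.

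**Figure D3:**
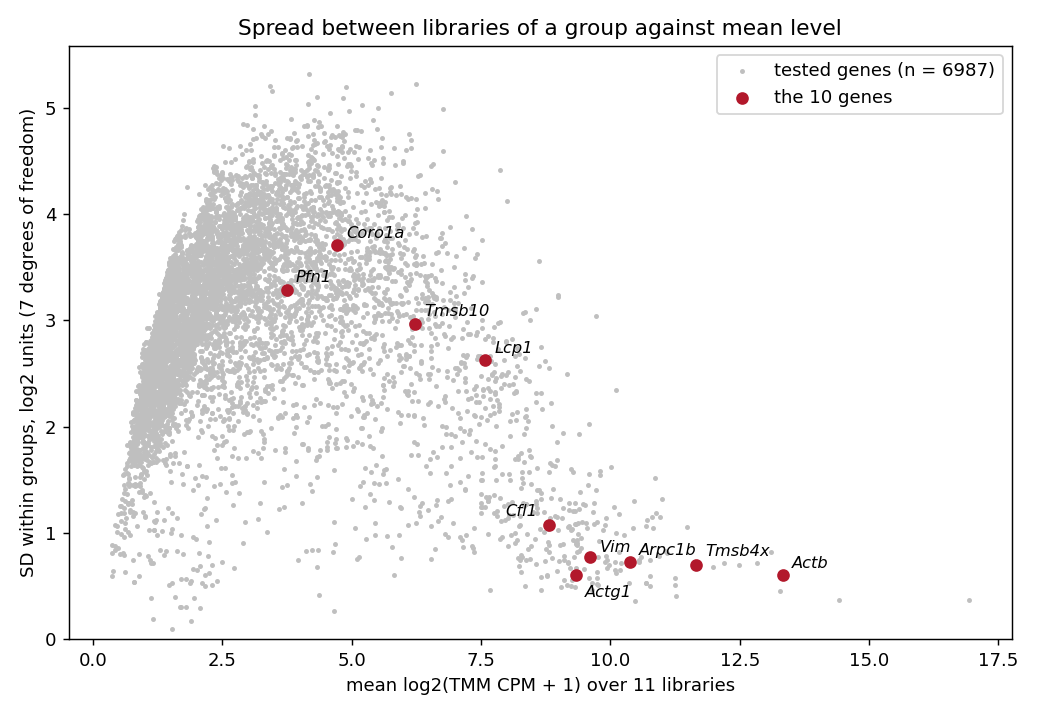
Each grey point is one of the 6987 tested genes, with its mean log2(TMM CPM + 1) over 11 libraries on the x axis and its SD within groups, in log2 units with 7 degrees of freedom, on the y axis. The red points are the 10 genes: 6 lie at the lower right with SDs of 0.600 to 1.08, and Lcp1, Tmsb10, Pfn1 and Coro1a lie among the other genes at 2.63 to 3.71.

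The first comparison asked whether these genes differed late in the course of colitis, over both genotype labels. edgeR's quasi-likelihood test with Benjamini-Hochberg adjustment called 21 of 6987 genes (0.301%), 18 higher and 3 lower at day 39, and 0 of the 10. The count over all tested genes was 62 without KO day 0 replicate 1, 1 without either WT day 0 library, 4 to 12 with any 1 day 39 library other than WT replicate 2 left out, and 1216 (17.4%) in DESeq2. None of the 10 had an unadjusted p under 0.05. DESeq2 and limma-voom also called 0 of the 10 here, and edgeR called 0 of them without the 3 libraries labelled KO that held more Ptger4 than a WT library of their day. KO day 0 then kept 1 library, which is assumed to vary like the other groups. The median log2 fold change was 0.04 over the 10 genes, 0.43 over tested genes averaging at least 100 CPM and 0.76 over all tested. Groups of all 5 day 0 and all 6 day 39 libraries did not overlap for 1.76% of tested genes, and overlapped for each of the 10.

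The SEs that edgeR gave these values differed greatly between genes. Actb and Actg1 had SEs of 0.30 and 1.08, though their SDs within groups were 0.600 and 0.602. The SEs therefore do not rank the genes by their spread between libraries. Actb had a log2 ratio of -0.25 ± 0.30 (SE; edgeR adjusted p = 0.720), with a 95% interval from -0.84 to 0.34. For Tmsb4x it was -0.37 ± 0.49 (edgeR adjusted p = 0.760), with an interval from -1.33 to 0.59. Without KO day 0 replicate 1 these values were 0.03 for Actb and 0.07 for Tmsb4x. Arpc1b had 0.03 ± 0.74 (edgeR adjusted p = 0.9998) and Vim -0.50 ± 0.94 (edgeR adjusted p = 0.869). Actg1 had 0.44 ± 1.08 (edgeR adjusted p = 0.928) and Cfl1 0.49 ± 1.23 (edgeR adjusted p = 0.932). With 1 library left out, Arpc1b ran from -0.35 to 0.55, the ends coming without WT day 0 replicate 2 and without replicate 1, and Cfl1 turned to -0.095 without KO day 39 replicate 2.

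The genes with uneven levels gave wide intervals. Lcp1 had a log2 ratio of -0.19 ± 1.44 (SE; edgeR adjusted p = 0.9998), Tmsb10 0.05 ± 2.02 (edgeR adjusted p = 0.9998), Coro1a 0.75 ± 2.57 (edgeR adjusted p = 0.981) and Pfn1 0.46 ± 2.87 (edgeR adjusted p = 0.9998). These 4 values also turned with 1 library left out. Without WT day 0 replicate 1, Lcp1 was 1.25. WT day 0 then kept 1 library, assumed to vary like the other groups, and since it had 0 counts of Pfn1 and 1 of Coro1a, no fold is given for them. Without KO day 39 replicate 3, Pfn1 was -1.54. Without WT day 39 replicate 1, Coro1a was -1.48 and Tmsb10 -1.58, and without KO day 0 replicate 1, Tmsb10 was 1.69. For Pfn1 the 95% interval ran from -5.17 to 6.08, which holds large changes in either direction. The exact permutation test of day (462 arrangements of the libraries, mean log2(CPM + 1), smallest possible p 0.00216) gave unadjusted p-values from 0.154 for Actg1 to 0.974 for Tmsb10.

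**Figure D4:**
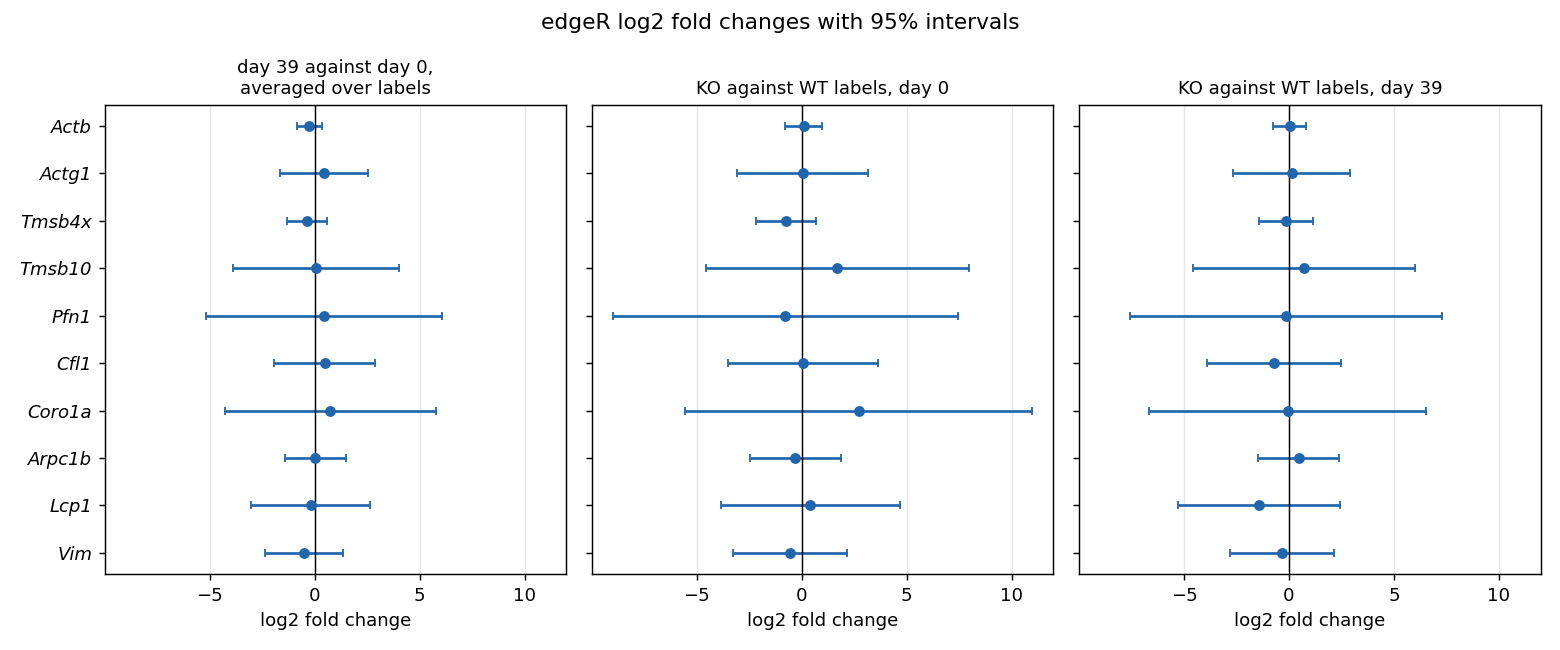
Points are edgeR log2 fold changes of the 10 genes and bars their 95% intervals, for day 39 against day 0 (left) and for KO against WT labels at day 0 (middle) and day 39 (right). Every interval crosses 0. Actb has the narrowest interval on the left, from -0.84 to 0.34, and Pfn1 the widest, from -5.17 to 6.08.

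The genotype labels were compared at each day, as the design asks what loss of EP4 changes in these macrophages. At day 0 edgeR called 1 gene of all tested (0.0143%) and 0 of the 10, and CPM ranges of the labels did not overlap for 12% of tested genes and for 0 of the 10. The smallest p-values of the 10 belonged to Tmsb4x, at -0.74 ± 0.73 (SE, in log2; edgeR adjusted p = 0.608), and Coro1a, with 2.72 ± 4.22 (edgeR adjusted p = 0.847). The median over the 10 was 0.05, against 0.07 over tested genes averaging at least 100 CPM and 1.08 over all tested. No gene of the 10 had an unadjusted p under 0.05 in edgeR, and DESeq2 called 0. For Tmsb4x and Coro1a, KO day 0 replicate 1 stood far above the other KO day 0 libraries. It had 6002 CPM of Tmsb4x, against 1426 and 2055, and 407 CPM of Coro1a, against 114 and 3.80.

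The tools disagreed on Actb at day 0, which was named after its values were seen. In edgeR its log2 fold change was 0.09 ± 0.45 (SE; adjusted p = 1). limma-voom gave a value of -0.71, lower in libraries labelled KO, with an adjusted p of 0.000727, and so called 1 of the 10, beside 178 of all tested genes (2.55%). The libraries overlapped, at 5980 to 20106.5 CPM under the KO label and 8689 to 14407 CPM under the WT label. Over the other 21 alternatives the log2 fold change ran from -1.78 to 0.64 and the adjusted p from 0.281 to 1. The limma-voom call therefore stood alone, and the order of the groups depended on the method.

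At day 39 edgeR called 2 of all tested genes (0.0286%) and 0 of the 10. The 2 were the skeletal muscle markers Tnnc2 and Pvalb, both lower under the KO label, with log2 fold changes of -8.65 ± 1.79 (SE; edgeR adjusted p = 0.00953) and -9.48 ± 2.06 (edgeR adjusted p = 0.0144). edgeR called neither with upper quartile scaling, without a filter or under a minimum mean of 10 counts. A fit to the day 39 groups alone also called neither. DESeq2 and limma-voom called 0 of the 10 too, and none of the 10 had an unadjusted p under 0.05 in edgeR. Labels did not overlap for 7.4% of tested genes and for 0 of the 10. Lcp1 had a log2 ratio of -1.43 ± 1.96 (SE, edgeR adjusted p = 0.896) and Arpc1b 0.45 ± 0.99 (edgeR adjusted p = 0.996). For Lcp1, WT day 39 replicate 3 had 1228 CPM, against 133 and 364 CPM in the other WT day 39 libraries. For Arpc1b, KO day 39 replicate 3 had 2470 CPM, against 957 and 1710 CPM in the other KO day 39 libraries. The median over the 10 was -0.10, against 0.10 over tested genes averaging at least 100 CPM and 0 over all tested.

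The course was also followed within each label. In libraries labelled WT, edgeR called 1 of all tested genes (0.0143%) and 0 of the 10, and in those labelled KO 11 (0.157%) and 0 of the 10. In neither contrast did any of the 10 reach an unadjusted p under 0.05 in edgeR, and DESeq2 and limma-voom called 0. In WT the smallest p-values belonged to Tmsb4x, at -0.67 ± 0.73 (SE, in log2; edgeR adjusted p = 0.652), and Coro1a, with 2.14 ± 4.09 (edgeR adjusted p = 0.848). Without WT day 39 replicate 1 the Coro1a value turned to -2.28. In KO they belonged to Actb, with -0.28 ± 0.40 (edgeR adjusted p = 0.857), and Lcp1, with -1.12 ± 1.95 (edgeR adjusted p = 0.912). The KO groups did not overlap between days for 11.3% of tested genes and for 0 of the 10. Without KO day 0 replicate 1, the Actb value turned to 0.27.

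Whether the course differed between the labels was tested as an interaction. edgeR called 0 of all tested genes (0%), with 1006 at an unadjusted p under 0.05, and 0 of the 10, none of which had an unadjusted p under 0.05. DESeq2 called 934 genes and limma-voom 19, of which 0 were among the 10. The log2 difference was -1.84 ± 2.95 (SE; edgeR adjusted p = 0.874) for Lcp1 and 0.61 ± 0.98 (edgeR adjusted p = 0.880) for Tmsb4x.

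One library stood at the top for several of these genes. KO day 0 replicate 1 had the highest level of all 11 libraries for Actb, Actg1, Tmsb10 and Coro1a, and the lowest for none. The 10 genes together took 3.41% of its total, against 1.17% to 2.35% in the other 10 libraries. The same library had the highest sum of the 14 macrophage markers, at 35218 CPM against 12921 and 8845 CPM in the other KO day 0 libraries. Its 10 skeletal muscle markers summed to 2744 CPM, against 25501 and 23526 CPM there, and its 11 smooth muscle and stroma markers to 4726 CPM, against 23597 and 23209 CPM. In WT day 0 the macrophage sums were 23430 and 24031 CPM, and the share of the 10 genes was 2.35% and 2.01%. The shares of KO day 0 replicates 2 and 3, the libraries with the highest muscle sums, were 1.45% and 1.17%. Day 39 did not show the same order. There WT replicate 2 had the highest skeletal muscle sum, at 16474 CPM, and the highest share, 1.86%. The KO day 39 libraries had skeletal muscle sums of 3265 to 4423 CPM and shares of 1.39% to 1.58%. The part of cell composition in the levels of the 10 genes was not tested.

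Muscle has actins of its own, which the 10 genes leave out. Acta1, the actin of skeletal muscle fibres, had 4935, 48708 and 73541 counts in KO day 0 and 1915 to 6665 in the other 8 libraries. KO day 0 replicates 2 and 3 thus held the most Acta1. Replicate 3 had the lowest Actb level of all libraries, at 5980 CPM, while replicate 2 had 10905 CPM, within the range of the others. Acta2, the actin of smooth muscle, had 1 to 223 counts at day 0 and 420 to 2665 at day 39, without overlap, as was the case for 1.76% of tested genes. Its log2 fold change was 6.64 ± 2.94 (SE) with an edgeR adjusted p of 0.208. Acta2 was named after its values were seen. Of the 10 tested smooth muscle and stroma markers, 5 had a positive log2 fold change between days, the median was -0.0091, and edgeR called 0. Of the markers of other cell types, edgeR called the fast-muscle genes Tnnc2 and Pvalb between days over both labels, with log2 fold changes of -4.25 ± 1.06 (SE; edgeR adjusted p = 0.0344) and -4.99 ± 1.21 (edgeR adjusted p = 0.0310). The fall was called under the KO label, at -9.79 ± 1.87 for Tnnc2 (edgeR adjusted p = 0.000305) and -10.79 ± 2.16 for Pvalb (edgeR adjusted p = 0.000826). With upper quartile scaling, or without a filter, edgeR called no gene between days under the KO label. For Pvalb the days overlapped under that label, since KO day 0 replicate 1 had 1.45 CPM and the KO day 39 libraries 0.198 to 1.73 CPM. Under the WT label the values were 1.29 ± 1.496 (edgeR adjusted p = 0.682) and 0.81 ± 1.63 (edgeR adjusted p = 0.863), and the interaction was not called for either gene (edgeR adjusted p = 0.0583 and 0.101).

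The wider machinery was examined in lists of 92 genes, of which 83 were tested. edgeR called 0 of the 83 in every contrast, with 2 to 9 (2.41% to 10.8%) at an unadjusted p under 0.05, against 467 to 1340 of all tested genes (6.68% to 19.2%). DESeq2 called 8 to 16 of the 83 (9.64% to 19.3%) and 585 to 1249 of all tested genes (8.37% to 17.9%). limma-voom called 0 to 3 of the 83 (0% to 3.61%) and 19 to 207 of all tested genes (0.272% to 2.96%). For the day comparison over both labels, limma-voom called the Arp2/3 genes Actr3 and Arpc1a and the twinfilin gene Twf2, all higher at day 39, and DESeq2 called these 3 among 10. That is 3.61% of the 83 in limma-voom, against 2.89% of all tested genes, and 12% in DESeq2, against 17.4%. Of the 83 genes, 5 (6.02%) had at least 1000 counts in every library, against 1.43% of all tested genes. Counts of 10 or fewer in at least 1 library were found for 71 (85.5%), against 95.02%, and the median SD was 2.82, against 3.04. The 5 were Actn4 (a crosslinker), Arpc2 (an Arp2/3 subunit), Cdc42 (a GTPase that turns on Arp2/3), Gsn (a severing protein) and Marcks (a membrane-bound crosslinker).

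Within the Arp2/3 complex, Arpc2 was the subunit besides Arpc1b with the highest level. It had 1628 to 6457 counts, with a mean of 522 ± 87.5 CPM (SD, n = 3) under the KO label and 561 ± 192 (n = 2) under the WT label at day 0. At day 39 the means were 774 ± 656 CPM (n = 3) and 949 ± 118 (n = 3). Its day difference was 0.66 ± 1.06 (SE) with an edgeR adjusted p of 0.821. The leading genes of the other lists had SEs of 0.99 to 2.88. Values were 1.18 ± 1.19 for Dstn (a cofilin relative), 0.79 ± 1.12 for Gsn, 0.57 ± 0.99 for Marcks, 1.22 ± 1.25 for Myh9 (non-muscle myosin) and -0.97 ± 0.99 for Cdc42, with edgeR adjusted p-values from 0.634 to 0.848. Cyfip1 (a WAVE complex subunit) had -1.69 ± 2.23, Tln1 (talin) 0.47 ± 1.49, Mkl2 (an actin-sensing cofactor of SRF) 1.13 ± 2.88 and Lmna (lamin A/C) 1.22 ± 1.23, and none of these 4 passed in edgeR.

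Actin genes are known targets of SRF, a factor that binds the CArG box and is switched on when free actin runs low. Promoter windows, 250 bases before to 50 after a start site, were held for 9 of the 10 genes, all but Actb (13 windows, RefSeq on GRCm38.p6), and were searched on both strands for the CArG box by name and for TATAAA. The Actg1 window held a CArG box 90 bases before the start site, on the minus strand. The box is shown in capitals within the stretch chr11:120348566-120348595. The Vim window held TATAAA 32 bases before the start site, on the plus strand, shown likewise within chr2:13574269-13574294.
Actg1: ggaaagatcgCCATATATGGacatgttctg
Vim: ctaacagtgtTATAAAagcagcgccc
Of 32851 windows, 535 (1.63%) held a CArG box and 4473 (13.6%) held TATAAA. Of the members' 13 windows, 1 held each. A match is a description of these letters only, and no binding was measured. In the libraries, the factors themselves gave little to compare, since the 3 SRF and MRTF genes summed to 0.236 to 248 CPM.

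The genes were also compared by the order of their levels over the 11 libraries. Pairs among the 10 had a median Spearman correlation of 0.182, with 37 of 45 pairs above 0 and a range from -0.373 (Actb and Cfl1) to 0.736 (Actg1 and Tmsb10). The median over all pairs of tested genes with at least 100 CPM was 0.0319. Tmsb4x and Vim had 0.555, and Actb and Actg1 had 0.455. All pairs share the libraries, their depth and their mix of cells, so these values are descriptions.

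Outside the 10, the gene most like a member was the highest of the tested genes with at least 100 CPM, and a maximum over so many genes is high by its choice. Tmsb4x was most like Cx3cr1 (0.909), a chemokine receptor of gut macrophages. Lcp1 was most like Cd4 (0.902), a surface protein that some gut macrophages carry. Further such genes were Echs1 for Actg1 (0.926), Hspd1 for Cfl1 (0.918), Ifrd1 for Actb (0.891), Rab5c for Coro1a (0.891), Lars2 for Pfn1 (0.855), Myeov2 for Tmsb10 (0.847) and Ctbp2 for Arpc1b (0.834).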

How the data were processed

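RNA of sorted colonic macrophages from 11 libraries was sequenced after 3′ library preparation with a Lexogen QuantSeq kit, per the labels' protocols. The deposited files hold the authors' whole-number counts per mouse gene symbol, not normalised. The submitters' processing notes name Bowtie2, edgeR and the human build hg19, without roles. The aligner settings, annotation, strand setting and use of molecular identifiers are not given in the sources used here, and neither is how an hg19 build fits mouse symbols, so no gene coordinates are taken from the files. Every file was read whole, and 22197 of its 23238 distinct symbols were found in GENCODE release M21.

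Genes were kept by filterByExpr (6987 of 23282). Counts were scaled by TMM and fitted with 1 coefficient per group to all 11 libraries in edgeR 4.0.16 (R 4.3.3, robust quasi-likelihood, two-sided F tests, Benjamini-Hochberg over all tested genes, threshold 0.05) in 6 contrasts. The SE of a log2 fold change was derived from its F statistic. CPM uses the TMM-scaled sum of tested genes. Logs of CPM use a pseudocount of 1, and fold changes on that scale understate changes of low genes. Shared sequence was sought as runs of 50 bases in the last 500 bases of GENCODE transcripts. A floor of 3 counts covers counting error only, since PCR copies are not independent molecules. The labels do not say that replicates are separate animals, so p-values rest on spread between libraries, which may be technical. edgeR estimates that spread partly from all genes together, so an SE is not a gene's own spread alone.

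The members and the gene lists were chosen with earlier results of these data known. Fold changes are given for all 10 genes between days over both labels, and in other contrasts for the 2 with the smallest p, for Actb at day 0 in addition, and for the highest gene of each pathway list. Alternatives were 3 other scalings, DESeq2 1.42.0, limma-voom (limma 3.58.1), non-robust estimation, other filters, fits to the groups compared, each library left out, a replicate block, and a fit without the KO libraries that held more Ptger4 than the lowest WT library of their day. An exact permutation test was added after seeing the data. Replicate numbers are not stated to pair libraries. The procedure was tested on simulated counts. Recovery of large changes was required only at a spread between libraries far below that of these data. How well changes would be found at the spread of these data is not given here. The Pearson correlation of log2(count + 1) between libraries was at most 0.542, so no library was a copy of another. The gene most like Vim is not reported here.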

Additional observations from a re-analysis of the deposited data

Results flagged for a closer look

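Among the 10 genes, 20 gap ratios were computed, 1 per gene and day, as the distance of the farthest library from its nearest neighbour divided by the range of the day. Of these, 2 were above the 95% critical value, Tmsb10 and Coro1a at day 0. That value holds for normally distributed values, while CPM of these genes was skewed. Their day 0 means were 241 and 115 CPM, against medians of 49.3 and 52.9 CPM. How often chance exceeds the value here is therefore not known.

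Tmsb10 at day 0 had a gap ratio of 0.802, above the 0.71 for 5 libraries. KO day 0 replicate 1 stood at 928 CPM, and the next highest day 0 library at 193 CPM. Coro1a at day 0 had a gap ratio of 0.721, again from KO day 0 replicate 1, at 407 CPM with the next library at 114 CPM. This library had 5776 counts of Tmsb10 and 2532 of Coro1a, and it was also the highest of all 11 in the sum of macrophage markers and the lowest in that of skeletal muscle markers. The part of these in either value was not tested. Without it, the log2 fold change between days over both labels was 1.69 for Tmsb10 in edgeR (adjusted p = 0.788), against 0.05 with it.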

How the results depend on the processing

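edgeR called 0 of the 10 genes in each contrast. Of the alternatives, 130 of 131 combinations of contrast and alternative called 0 of them, and limma-voom at day 0 called 1, Actb. Of 460 fold changes under alternatives, 408 kept their direction and 52 did not. Among those 52, the limma-voom value of Actb had the lowest adjusted p, 0.000727. The causes were not tested.

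Counts of called genes over all tested genes moved widely. In the order KO against WT at day 0, the same at day 39, day 39 against day 0 in WT, in KO, over both labels, and the interaction, edgeR called 1, 2, 1, 11, 21 and 0. DESeq2 called 1249, 585, 1183, 1144, 1216 and 934, and limma-voom 178, 34, 169, 207, 202 and 19. With DESeq2 size factors the count fell to 0 in WT and the interaction gave 2. With library size only it was 0 at day 0, 0 in WT, 9 over both labels and 2 in the interaction, and with upper quartile 0 at day 39, 0 in KO, 51 over both labels and 5 in the interaction. Without robust estimation it was 2 at day 0, 4 in WT, 59 over both labels and 4 in the interaction. Without a filter it was 0 in both genotype contrasts, 0 in WT, 0 in KO and 2 over both labels, and under a minimum mean of 10 counts 0, 0, 0, 5 and 3. Fits to only the groups compared gave 0, 0, 2 and 5 in the first 4 contrasts. Without the KO libraries whose Ptger4 went against the label it was 0 at day 0, 0 at day 39, 7 in KO and 4 over both labels, with 1 library left in KO day 0 that is assumed to vary like the other groups. The exact permutation test gave 0 over both labels.

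Leaving out 1 library, which leaves 1 in WT day 0 when taken from there, gave 0 to 5 genes at day 0, 0 to 2 at day 39, 0 to 1 in WT, 5 to 15 in KO, 1 to 62 over both labels and 0 to 8 in the interaction. The highest counts came without KO day 0 replicate 1. The replicate block, with the numbers of the titles as an added term, gave 0 at day 0, 1 at day 39, 0 in WT and 7 over both labels. Libraries of the same number in different groups did not deviate together (r from -0.0137 to 0.0697 over 15 pairs), so the numbers are not taken as a pairing.

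Directions of the 10 genes that turned had adjusted p-values of 0.281 or more, except in limma-voom. For KO against WT at day 0, Actb was -0.14 with DESeq2 size factors and with DESeq2, -1.78 with upper quartile, -0.71 with limma-voom and -0.16 without the Ptger4-discordant libraries, and -0.46 to 0.64 with 1 library left out. Over time in WT, Coro1a was -2.28 to 8.66 with 1 library left out. Over time in KO, Actb was 0.46 with limma-voom and -0.62 to 0.27 with 1 library left out.

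Between days over both labels, DESeq2 size factors and DESeq2 gave -0.11 for Tmsb10 and -0.19 for Arpc1b, library size only -0.079 and -0.28, no filter -0.25 and -0.17, and a minimum mean of 10 counts -0.090 and -0.022. Upper quartile gave -0.65 for Actg1, -1.40 for Tmsb10, -0.062 for Pfn1, -0.49 for Cfl1 and -0.66 for Arpc1b. limma-voom gave 0.20 for Actb and -0.11 for Tmsb10. Without the Ptger4-discordant libraries Tmsb4x was 0.25 and Arpc1b -0.27. With the replicate block Tmsb10 was -0.0028 and Lcp1 0.47. On the permutation scale Tmsb10 was -0.047 and Coro1a -0.092. With 1 library left out, values ran from -0.58 to 0.030 for Actb, -0.67 to 0.068 for Tmsb4x, -1.58 to 1.69 for Tmsb10, -1.54 to 5.97 for Pfn1, -0.095 to 0.74 for Cfl1, -1.48 to 3.96 for Coro1a, -0.35 to 0.55 for Arpc1b and -1.05 to 1.25 for Lcp1. The upper ends for Pfn1 and Coro1a, and 8.66 above, leave WT day 0 with 1 library at 0 and 1 counts, so these fitted values depend on the prior count and are no fold.

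Scaling moved the median log2 fold change of all tested genes at day 0 from 1.08 with TMM to 0.84 (DESeq2 size factors), 1.0 (library size) and 0 (upper quartile), and that of the 10 genes from 0.05 to -0.20, 0.06 and -1.59. Of 40 group means of CPM, 1 moved by more than its SD, Cfl1 in WT day 0, from 429 CPM to 457 CPM when scaled to the library total and 505 CPM with DESeq2 size factors. The 6 genes with even levels had 662 counts or more in every library.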
